A study of Mus musculus with 6 samples.

Results

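The NEDD4 family of ubiquitin ligases and its NDFIP adaptors were examined in inflamed mouse colon from which *Nedd4l*, one of the family, had been deleted in the epithelium. The 9 genes were chosen by name from the 27202 listed in the deposited table, 7 ligases (*Nedd4l*, *Nedd4*, *Itch*, *Wwp1*, *Wwp2*, *Smurf1* and *Smurf2*) and 2 adaptors (*Ndfip1* and *Ndfip2*), and each was found there once. RNA was sequenced from whole colonic tissue, in 3 libraries of *Nedd4l* fl/fl VillinCre mice and 3 of *Nedd4l* fl/fl littermates, labelled Nedd4l knockout and WT and called knockout and control below. Both genotypes carry the floxed allele on a C57BL/6J background, were 8 to 10 weeks old, and received 2% dextran sulfate sodium (DSS), which injures the colonic epithelium, in their drinking water over 7 days. No mice without DSS were part of these libraries, so the values describe the family under colitis only. Cre was driven by the Villin promoter, which is active in intestinal epithelial cells (IECs), so immune, stromal and muscle cells in the tissue keep the gene. The labels number the libraries without saying that each came from a separate mouse, so p-values measure the spread between these samples.

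Ligases of this family share a lipid-binding domain at the amino terminus, a row of WW domains that bind short proline-rich (PY) motifs in other proteins, and a catalytic HECT domain that passes ubiquitin to the substrate. NDFIP1 and NDFIP2 are membrane proteins with PY motifs that recruit and activate these ligases on intracellular membranes. NEDD4L is best known for removing the epithelial sodium channel from the cell surface, and several members can act on the same substrates, which is why a change of the paralogs is a natural question where 1 member is deleted.

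Expression was measured as normalized counts, in which each library's reads had been scaled by a size factor of its own. The libraries held between 14914367 and 17547270 of the smallest steps in which their values are written, which are reads if 1 step is 1 read. The 9 genes had between 497 and 7916 steps in a library, all passed the filter of a mean of at least 10, and counting error alone would then give a coefficient of variation between 1.15% and 3.98% of the mean. Fold changes were fitted with limma on log2(normalized count + 1) over 16246 genes. None of them (0 lower, 0 higher) had a limma adjusted p under 0.05. At an unadjusted p under 0.05 the knockout mean was below the control in 1151 genes (7.08%) and above it in 1122 (6.91%). Knockout libraries 1 and 2 stood apart over all genes. Library 1 had the lowest mean correlations, 0.963 with its own genotype and 0.948 with the controls, and library 2 correlated more with the controls (0.977) than with its own genotype (0.966). Estimates without each of them are given below.

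*Nedd4l* was the member with the largest difference between genotypes. The gene spans 64887705 to 65217831 of chromosome 18 (GRCm38, plus strand), and all later coordinates are on the same build. It had 476, 942 and 566 normalized counts in knockout libraries 1, 2 and 3, compared with 1241, 1271 and 1266 in control libraries 1, 2 and 3. The genotypes did not overlap, with a gap of 299 normalized counts between the highest knockout and the lowest control library. Relative to the control mean, 37.8%, 74.8% and 45.0% of the transcript count was left in the 3 knockout libraries, so that library 2 held 1.98 times as much as library 1. The coefficient of variation was 37.3% in *Nedd4l* fl/fl VillinCre mice and 1.27% in *Nedd4l* fl/fl mice, the latter below the 2.76% that counting error alone would give for 3 libraries on average.

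The means of *Nedd4l* were 662 ± 247 (SD, n = 3) and 1260 ± 16.0 (SD, n = 3). On the log2 scale this was a change of −0.99 with a standard error (SE) of 0.24 and a 95% interval from −1.56 to −0.42, and limma gave an adjusted p = 0.225. The unadjusted limma p was 0.00486, which ranked 349 among 16246 genes, and 4.03% of all genes had an absolute log2 fold change at least as large. With knockout library 2 left out the estimate was −1.28 (limma adjusted p = 0.0130) and without knockout library 1 it was −0.79 (limma adjusted p = 0.226), and over 15 alternative settings the adjusted p ranged from 0.0130 to 0.513. The count is over the whole gene, and the sources used here do not name the floxed exon, so reads from exons that remain after recombination are counted with those from intact transcripts.

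Epithelial content was measured beside it with 16 epithelial markers, all tested and present in every library. Their summed normalized count ran from 299845 to 364611 in *Nedd4l* fl/fl VillinCre and from 333116 to 360644 in *Nedd4l* fl/fl mice. The sum overlapped between genotypes, and it was lowest in knockout library 1, the library with least *Nedd4l*. As a percentage of that sum, *Nedd4l* stood at 0.159, 0.258 and 0.170 in the knockout libraries and at 0.344, 0.354 and 0.380 in the controls. The order of the 3 knockout libraries was therefore kept when *Nedd4l* was set against this sum, with 44.2%, 71.8% and 47.3% of the control ratio left. The sum leans on genes of high count and is not an even measure of epithelial content. *Krt8*, its largest part, had 65762, 79400 and 72809 in knockout libraries 1, 2 and 3 against 84713, 85765 and 77503 in the controls. *Nedd4l* was not set against single markers, which could give another order. Single markers varied, 11 being lower and 5 higher. *Slc26a3* had 6432, 13620 and 7456 in knockout libraries 1, 2 and 3 against 17122, 14214 and 11356 in the controls. Its knockout libraries stood in the same order as those of *Nedd4l*. *Epcam* had 21520, 23577 and 24439 against 21645, 21653 and 20973. The part of single epithelial cell types in the *Nedd4l* difference was not tested. *Nedd4l* was also below the controls in all 3 knockout libraries when divided by the count of any of the other 8 members in the same library, a measure that no scaling between libraries can change. The margin was small for *Wwp1*, with a ratio of 0.958 in knockout library 2 and 0.968 in control library 1.

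**Figure D1:**
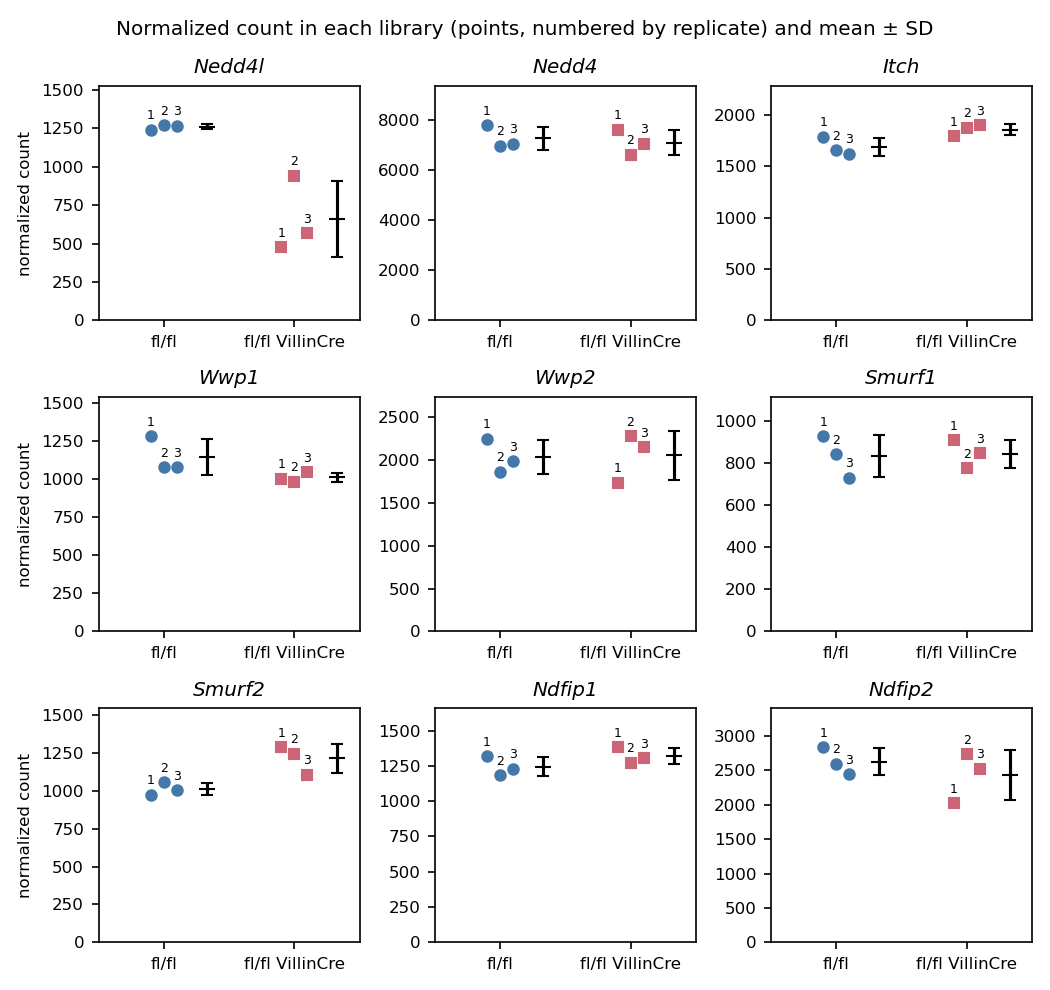
Normalized count (vertical axis, from 0) of each of the 9 genes in the 3 Nedd4l fl/fl (circles) and 3 Nedd4l fl/fl VillinCre libraries (squares), numbered by replicate, with the mean and SD beside them. Nedd4l lies between 1241 and 1271 in the controls and between 476 and 942 in the knockout libraries, and the other 8 genes lie closer together.

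*Nedd4*, the closest relative of *Nedd4l* and the ligase after which the family is named, had the highest count of the ligases. It lies on chromosome 9 from 72662346 to 72749852, plus strand. It had 7588, 6598 and 7032 normalized counts in knockout libraries 1, 2 and 3 and 7779, 6952 and 7034 in control libraries 1, 2 and 3. The genotypes overlapped over most of their range, with control library 1 the highest and knockout library 2 the lowest of the 6. The log2 fold change was −0.04 (SE 0.09, limma adjusted p = 0.865), with a 95% interval from 0.848-fold to 1.12-fold. Its sign turned when control library 1 (0.014) or knockout library 2 (0.012) was left out, and it was −0.09 without knockout library 1, so no direction can be given for *Nedd4*.

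*Itch* encodes the ligase missing in itchy mice, which develop inflammation of skin, lung and other organs. It lies on chromosome 2 from 155133509 to 155226855, plus strand. The normalized counts of *Itch* were 1794, 1873 and 1900 in knockout libraries 1, 2 and 3, and 1788, 1654 and 1621 in control libraries 1, 2 and 3. Every knockout library was above every control library, although the gap between the nearest pair was only 5.94 normalized counts. The log2 fold change was 0.14 (SE 0.08, limma adjusted p = 0.441), and its 95% interval ran from 0.974-fold to 1.24-fold. Without knockout library 1 or 2 it was 0.16 or 0.13.

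*Wwp1* and *Wwp2* encode a pair of closely related ligases, the first known for acting on KLF5. *Wwp1* lies on chromosome 4 from 19608303 to 19708993, minus strand, and *Wwp2* on chromosome 8 from 107436365 to 107558595, plus strand. *Wwp1* stood at 1004, 983 and 1046 normalized counts in knockout libraries 1, 2 and 3 and at 1283, 1078 and 1077 in control libraries 1, 2 and 3. All knockout libraries were below all controls, by 31.5 normalized counts at the nearest, and control library 1 was well above the other two controls. The log2 fold change of *Wwp1* was −0.18 (SE 0.09, limma adjusted p = 0.426), with a 95% interval from 0.761-fold to 1.03-fold. It was −0.09 without that control, −0.17 without knockout library 1 and −0.16 without knockout library 2. *Wwp2* stood at 1732, 2276 and 2149 in the knockout and 2246, 1860 and 1982 in the control libraries, in the same order of replicates. Both the lowest and the highest *Wwp2* value came from knockout libraries. Its log2 fold change was 0.01 (SE 0.12, limma adjusted p = 0.973), with a 95% interval from 0.828-fold to 1.23-fold, and it was below 0 in 5 of 15 alternative settings. Without knockout library 1 it was 0.13 and without knockout library 2 it was −0.07.

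The SMURF ligases are named for their action on SMAD proteins of BMP and TGF-β signaling, and *Smurf2* gave the largest log2 difference among the paralogs. *Smurf2* lies on chromosome 11 from 106820066 to 106920715 and *Smurf1* on chromosome 5 from 144876495 to 144965847, both on the minus strand. *Smurf2* had 1287, 1244 and 1106 normalized counts in knockout libraries 1, 2 and 3 and 975, 1054 and 1004 in control libraries 1, 2 and 3. Each knockout library was above each control, with a gap of 51.4 normalized counts, and the 3 controls lay close together. The log2 fold change of *Smurf2* was 0.26 (standard error 0.09, unadjusted p = 0.0185, adjusted p = 0.301 from limma), with a 95% interval from 1.04-fold to 1.38-fold. It did not pass the threshold of 0.05 after adjustment, and 37.0% of all genes had an absolute log2 fold change at least as large. Over 15 alternative settings the value stayed positive, between 0.17 with array weights and 0.32 without knockout library 3 (0.21 and 0.24 without knockout libraries 1 and 2), the unadjusted p was under 0.05 in 12 of them, and the adjusted p ranged from 0.197 to 0.513.

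*Smurf1* had 909, 776 and 847 normalized counts in the 3 *Nedd4l* fl/fl VillinCre and 929, 842 and 731 in the 3 *Nedd4l* fl/fl libraries, which overlapped over most of their range. Its log2 fold change was 0.02 (SE 0.11, limma adjusted p = 0.944), with a 95% interval from 0.847-fold to 1.22-fold, and it was −0.07 without control library 3, −0.03 without knockout library 1 and 0.08 without knockout library 2. Within a library, *Smurf2* exceeded *Smurf1* by 1.31 to 1.60 times in the knockout and 1.05 to 1.37 times in the control mice, ranges that overlap. A difference between the 2 paralogs in their response was thus not resolved by this ratio.

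Neither adaptor passed the test, and both overlapped between genotypes. *Ndfip1*, on chromosome 18 from 38418975 to 38464399 (plus strand) in the table, had 1383, 1271 and 1304 normalized counts in knockout libraries 1, 2 and 3 and 1318, 1186 and 1230 in control libraries 1, 2 and 3. The ranges overlapped, and the log2 fold change was 0.08 (SE 0.08, limma adjusted p = 0.645), with a 95% interval from 0.932-fold to 1.21-fold. It was 0.05 without knockout library 1 and 0.11 without knockout library 2. *Ndfip2*, on chromosome 14 from 105258573 to 105309298 (plus strand), had 2024, 2733 and 2524 in the knockout and 2835, 2596 and 2444 in the control libraries. Only knockout library 1 lay below the controls, the same library that was lowest for *Wwp2* and for the epithelial markers. The log2 fold change of *Ndfip2* was −0.12 (SE 0.12, limma adjusted p = 0.663), with a 95% interval from 0.756-fold to 1.12-fold, and it was 0.0033 without that library and −0.21 without knockout library 2.

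**Figure D2:**
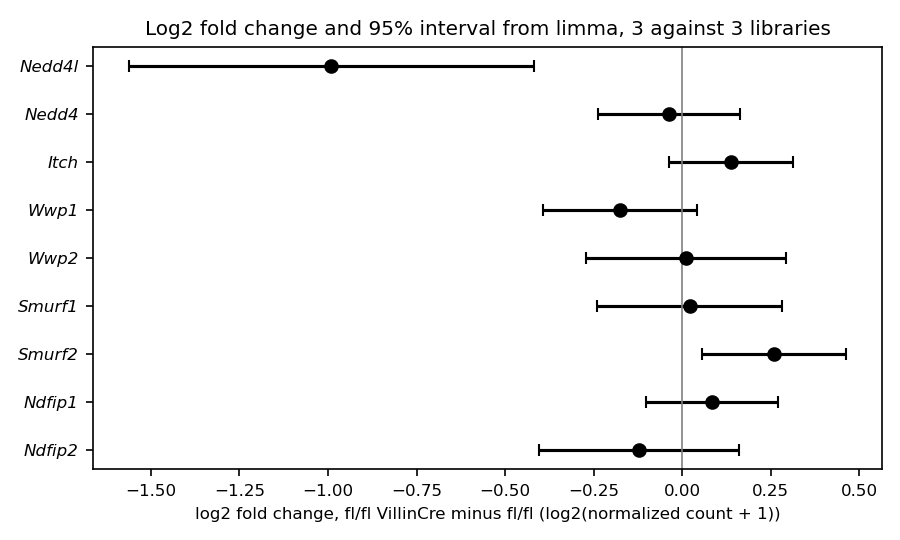
Log2 fold change (horizontal axis, Nedd4l fl/fl VillinCre minus Nedd4l fl/fl) of each gene with its 95% interval from limma. The intervals of Nedd4l and Smurf2 leave out 0 before adjustment, and the other 7 include it.

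Set against all genes, 4 of the 9 members had genotypes that did not overlap, *Nedd4l* and *Wwp1* below and *Itch* and *Smurf2* above the controls, while 10.9% of all tested genes lay wholly below and 10.5% wholly above. At an unadjusted p under 0.05 there was 1 lower member, *Nedd4l*, and 1 higher, *Smurf2*, beside the 7.08% and 6.91% of all genes given above. The list of 9 was not tested against that background. An exact permutation test over the samples gave a two-sided p of 0.10 for each of the 4 genes without overlap, the smallest that 3 against 3 allow. No paralog or adaptor passed the adjusted threshold in any setting. In the fit with all 6 libraries, the highest upper bound of a 95% interval among the 8 of them was 1.38-fold, for *Smurf2*.

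**Figure D3:**
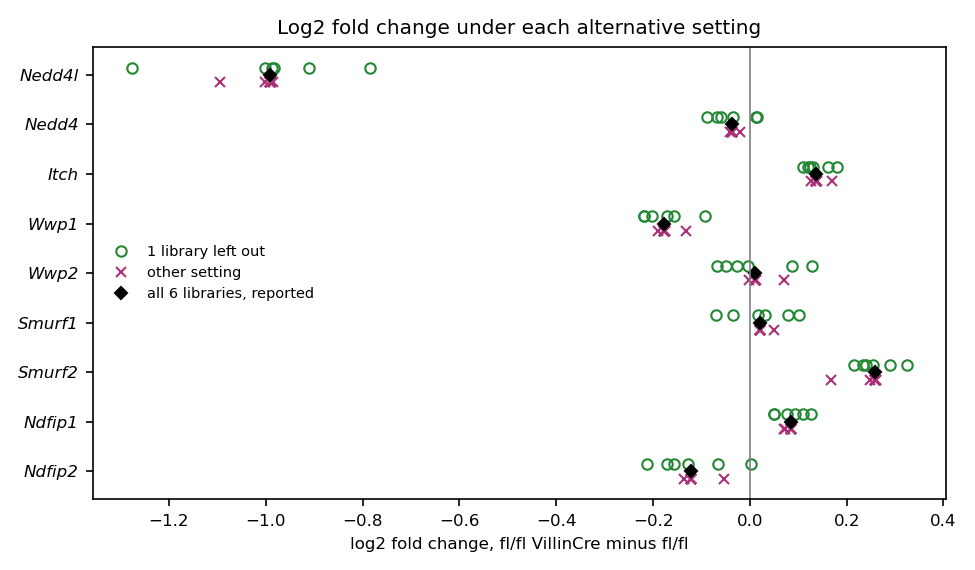
Log2 fold change (horizontal axis) of each member with all 6 libraries (diamonds), with 1 library left out (circles) and under the other settings (crosses). Nedd4l lies between −1.28 and −0.79, Smurf2 between 0.17 and 0.32, and Wwp2 on both sides of 0.

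Levels of different genes were compared per kilobase of the gene length in the table. In *Nedd4l* fl/fl mice *Nedd4* had 661 ± 41.5 (SD, n = 3) normalized counts per kilobase, and *Nedd4l* had 87.6 ± 1.11 (SD, n = 3), the lowest of the 9 genes. Between them the order was *Wwp2* (229 ± 22.2), *Ndfip2* (227 ± 17.1), *Wwp1* (178 ± 18.4), *Itch* (174 ± 9.14), *Smurf2* (164 ± 6.55) and *Smurf1* (132 ± 15.7), all as SD with n = 3. The ranges of *Wwp2* and *Ndfip2* overlapped, as did those of *Wwp1* and *Itch* and of *Itch* and *Smurf2*. In *Nedd4l* fl/fl VillinCre mice *Nedd4* was again the highest ligase at 645 ± 45.2 and *Nedd4l* the lowest at 46.0 ± 17.2 per kilobase (SD, n = 3). *Smurf2* stood at 197 ± 15.4 and *Itch* at 191 ± 5.65, both above *Wwp1* at 157 ± 4.98, whereas *Wwp1* had the highest mean of the 3 in the controls. That place in the controls rests on control library 1, where *Wwp1* had 199. In control libraries 2 and 3 *Wwp1* had 167 and 167, *Itch* 170 and 167, and *Smurf2* 171 and 163.

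*Ndfip1* had 1338 ± 72.6 (SD, n = 3) per kilobase in the controls, but this rests on a length of 930 bases in the table. The GENCODE M21 annotation of the same build gives it 6331 exon bases and a wider span, from 38410396 to 38465303, and with that length its level was 197 ± 10.7 (SD, n = 3). Its place in the order therefore depends on the annotation. The length does not enter its fold change, but its reads were not recounted over the longer annotation. *Nedd4l* has 14382 bases in the table and 17659 in that annotation, and was the lowest member with either length. The annotation length joins the exons of all transcripts, and the transcripts in use were not determined. By count alone, its control mean of 1260 was above those of *Wwp1* (1146), *Smurf2* (1011) and *Smurf1* (834), so its place rests on the length.

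**Figure D4:**
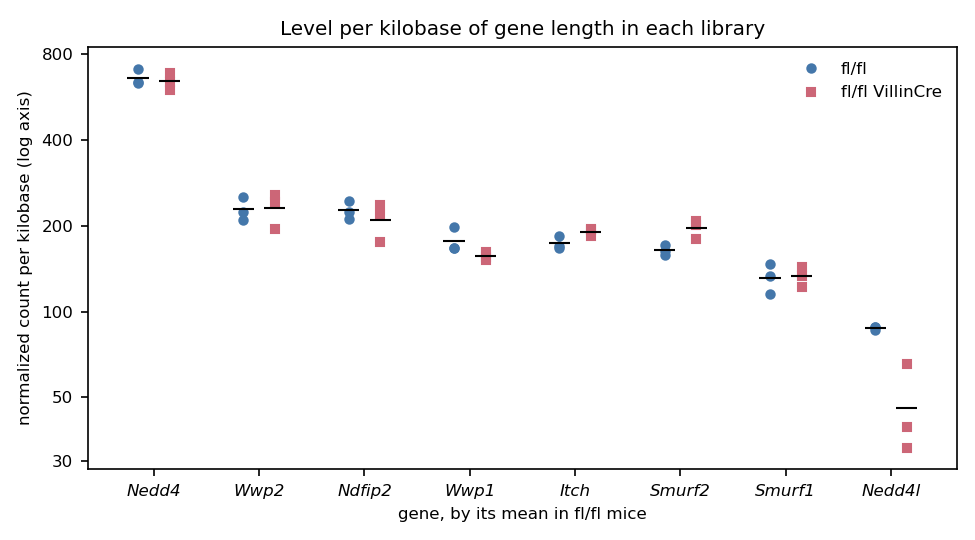
Normalized counts per kilobase of gene length (log axis) of 8 genes in each library, ordered by their mean in Nedd4l fl/fl mice, with the mean of each genotype as a line; Ndfip1 is left out because its length differs between annotations. Nedd4 is highest and Nedd4l lowest in both genotypes.

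Summed over the 7 ligases, the per-kilobase level was 1613, 1593 and 1593 in knockout libraries 1, 2 and 3 and 1736, 1573 and 1565 in control libraries 1, 2 and 3. The sums overlapped, and control library 1 was the highest of all. *Nedd4l* itself made up 2.88% ± 1.09 (SD, n = 3) of the sum in the knockout and 5.41% ± 0.376 (SD, n = 3) in the control mice. With its GENCODE M21 length these shares were 2.36% ± 0.896 and 4.45% ± 0.313 (SD, n = 3). The shares below use the length in the table. The share of *Nedd4* was 40.3% ± 2.57 and 40.7% ± 0.367 (SD, n = 3). *Smurf2* held 12.3% ± 0.906 against 10.1% ± 0.916, *Itch* 12.0% ± 0.433 against 10.7% ± 0.116, and *Wwp1* 9.79% ± 0.332 against 10.9% ± 0.466 (SD, n = 3 each). Shares of a fixed whole move against one another, so the lower share of *Nedd4l* by itself raises the others slightly.

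In absolute terms the mean of *Nedd4l* was lower by 41.6 normalized counts per kilobase in the knockout (46.0 against 87.6). With its length in GENCODE M21 it was lower by 33.9 (37.5 against 71.3), while the other 6 ligases have the same length in both. *Smurf2* was higher by 32.7 (197 against 164) and *Itch* by 17.3 (191 against 174). *Wwp1* and *Nedd4*, at −21.0 and −16.6, lay on the other side, and for *Wwp2* and *Smurf1* the differences were 2.62 and 1.55. The 6 ligases other than *Nedd4l* summed to 1554 ± 26.0 in the knockout and 1537 ± 97.9 in the control mice (SD, n = 3), a difference of 16.6 that is smaller than the spread between control libraries.

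Other cell types contribute to these counts, since whole tissue was sequenced and fewer cells of a type cannot be told from less RNA per cell. All 7 fibroblast markers had positive log2 fold changes, 3 of them at an unadjusted p under 0.05, with a median of 0.78 against 0.0013 over all tested genes. Their summed normalized count ran from 21388 to 43312 in *Nedd4l* fl/fl VillinCre and from 10935 to 18526 in *Nedd4l* fl/fl mice, and no marker was at 0. That sum leans on the collagen genes *Col1a1*, *Col1a2* and *Col3a1*, the 3 under 0.05 and the only 3 without overlap. *Col3a1* had 19758, 9833 and 10541 in knockout libraries 1, 2 and 3 against 8282, 4557 and 5729 in the controls. *Pdgfra*, *Dcn*, *Pdgfrb* and *Lum* overlapped between genotypes. Of 12 immune markers 11 were positive (median 0.37, 3 at an unadjusted p under 0.05), with sums from 9501 to 17202 against 6368 to 8923. The immune sum leans on single genes. *Lyz2* had 5467, 5830 and 4727 normalized counts in knockout libraries 1, 2 and 3 against 4254, 2795 and 4081 in the controls. *S100a8* had 2708, 31.0 and 417 against 12.8, 38.7 and 29.0. The 1 negative marker, *Cd3e*, had every knockout library below every control. The 16 epithelial markers had 11 negative and 5 positive values, with a median of −0.06 and 0 at an unadjusted p under 0.05. The fibroblast and immune sums did not overlap between genotypes and were higher in the knockout libraries, as were *Smurf2* and *Itch*. Their part in those differences was not tested. The sums of the 6 smooth muscle markers, all with negative log2 fold changes (5395 to 10588 against 4824 to 20465), and the 4 endothelial markers (1950 to 3270 against 1319 to 1984) overlapped.

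The partners of the family were followed in 5 lists of fixed membership. At an adjusted p under 0.05, 0 members of any list passed, so the following counts use the unadjusted p, for which the background is 7.08% lower and 6.91% higher. For genotypes without overlap the background is 10.9% wholly below and 10.5% wholly above. Such genes numbered 0 below and 2 above of 19 other HECT ligases, and 1 and 3 of 18 adaptors and WW-binding partners. They numbered 1 and 1 of 8 E2 enzymes, 1 and 3 of 21 regulators, and 1 and 5 of 25 substrates. Naming genes by smallest p favours those without overlap. Of 20 HECT ligases outside the family 19 were tested, 15 with positive and 4 with negative values and a median log2 fold change of 0.04. *Herc1*, which encodes a giant HECT ligase, was the single one under 0.05, at 2422, 2251 and 2183 normalized counts in the knockout and 1994, 1849 and 1856 in the control libraries (log2 fold change 0.27, standard error 0.08, adjusted p = 0.270 from limma). Its genotypes did not overlap. The next by p were *Arel1* (0.18), *Herc4* (0.21) and *Trip12* (0.15), with adjusted p from 0.366 to 0.448 from limma.

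Among 18 further adaptors and WW-binding partners, 9 were positive and 9 negative (median 0.01), and 3 were higher at an unadjusted p under 0.05. *Pmepa1*, a TGF-β target whose membrane protein carries PY motifs that bind NEDD4 ligases, had 1522, 865 and 905 normalized counts in the knockout and 695, 740 and 640 in the control libraries. Every knockout library was above the controls, library 1 by far the most (log2 fold change 0.62, standard error 0.22, adjusted p = 0.313 from limma). *Amotl2*, an angiomotin of the Hippo pathway, and *Laptm4a*, a lysosomal membrane protein, had log2 fold changes of 0.44 and 0.26 (adjusted p = 0.279 and 0.313 from limma) without overlap. *Arrdc1*, an arrestin-like adaptor that recruits these ligases to vesicles, had −0.15 (adjusted p = 0.396 from limma).

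Of the 8 E2 enzymes, which hand ubiquitin to the ligases, 4 were positive and 4 negative (median −0.03). *Ube2l6*, better known as the E2 of the interferon-induced modifier ISG15, had 639, 306 and 477 normalized counts in the knockout and 257, 270 and 293 in the control libraries, without overlap (log2 fold change 0.73, standard error 0.25, adjusted p = 0.306 from limma). *Ube2l3*, a general partner of HECT ligases, had −0.17, *Ube2e2* −0.28 and *Ube2e3* −0.08, with adjusted p from 0.435 to 0.678 from limma.

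Of 21 regulators of the ligases, 10 were positive and 11 negative (median −0.0080), with 2 higher and 1 lower at an unadjusted p under 0.05. *Usp9x*, a deubiquitinase that protects several of these ligases, had 2801, 2264 and 2571 normalized counts in the knockout and 2194, 1965 and 1799 in the control libraries (log2 fold change 0.36, standard error 0.11, adjusted p = 0.278 from limma). *N4bp1*, which binds NEDD4 and inhibits ITCH, had 1449, 1387 and 1485 against 1270, 1208 and 1151 (0.25, standard error 0.08, adjusted p = 0.278 from limma). *Ywhab*, one of the phosphoserine-binding proteins that hold phosphorylated NEDD4L away from its substrates, had 5142, 5843 and 5182 against 6349, 7003 and 6007 (−0.26, standard error 0.09, adjusted p = 0.310 from limma). None of the 3 overlapped between genotypes. *Wnk1* had 0.15 (limma adjusted p = 0.391).

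The list of reported substrates held 25 genes, all tested, 15 positive and 10 negative (median 0.05), with 6 higher and 1 lower at an unadjusted p under 0.05. The transcripts of the sodium channel subunits *Scnn1g* and *Scnn1b* had the largest differences of the list, 98.7, 80.7 and 80.5 against 26.7, 14.4 and 22.0 normalized counts for *Scnn1g* (log2 fold change 2.03, adjusted p = 0.116 from limma) and 108, 73.0 and 95.9 against 47.4, 17.1 and 39.9 for *Scnn1b* (1.48, adjusted p = 0.227 from limma). *Cxcr4*, a chemokine receptor that ITCH sends to lysosomes, had 1.03 (adjusted p = 0.192 from limma), and *Kcnq1*, a potassium channel, −0.40 (adjusted p = 0.275 from limma). All 4 had no overlap between genotypes, which their choice by smallest p favours. The gene of the third subunit, *Scnn1a*, had −0.30 (limma adjusted p = 0.517) and was picked after its value was seen. The remaining genes under 0.05 were *Il6st* (0.37), *Jun* (0.25) and *Map3k2* (0.32), also named after their values were seen. RNA was measured here, so nothing is said of the ubiquitination or the amount of these proteins.

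The genes whose profile over the 6 libraries was nearest to that of *Nedd4l* were ranked by the root-mean-square difference of log2 values, each gene centred on its control mean, over 11879 other protein-coding genes with a mean of at least 50. They were *Trabd2b*, a membrane protease of Wnt proteins (0.130), *Cry1*, a repressor of the circadian clock (0.133), *Rbp2*, a retinol-binding protein of enterocytes (0.162), *Msrb2*, a mitochondrial methionine sulfoxide reductase (0.176), and *Il17re*, the receptor of IL-17C (0.191). *Cry1* had 449, 709 and 504 normalized counts in knockout libraries 1, 2 and 3 against 1052, 1222 and 980 in control libraries 1, 2 and 3. Knockout library 2 was the highest knockout library in all 5, which the choice by likeness to *Nedd4l* favours, and for *Rbp2* it overlapped with the controls. The nearest family members were *Ndfip2* at rank 2461 (0.648) and *Wwp1* at rank 2729 (0.661), and the farthest was *Smurf2* at rank 9711 (0.933). These distances describe likeness over 6 libraries that differ in genotype and carry no test.

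**Figure D5:**
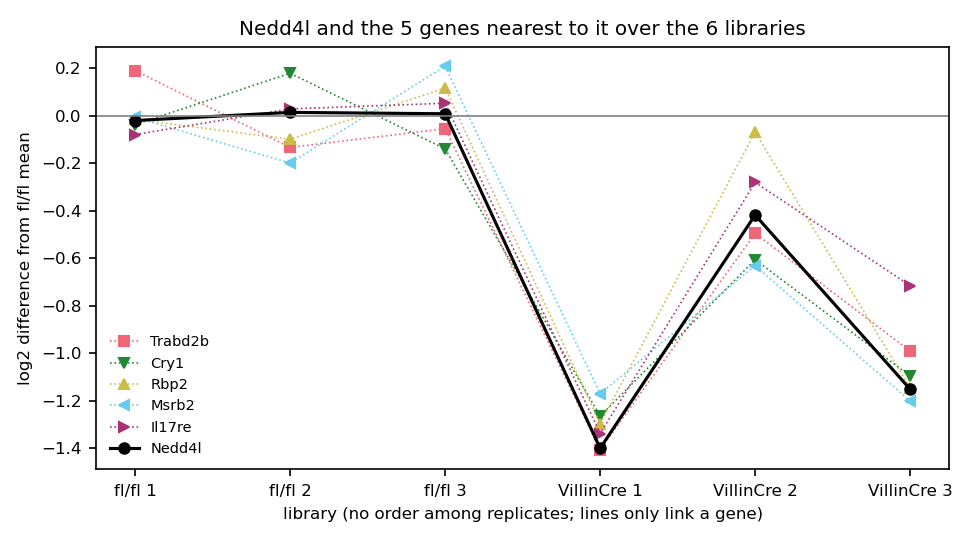
Log2 value less the control mean (vertical axis) in each of the 6 libraries for Nedd4l (black) and the 5 genes nearest to it; replicates have no order and lines only link the points of a gene. In each gene VillinCre library 2 is nearer to the controls than libraries 1 and 3, as the choice by likeness to Nedd4l favours.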

How the data were processed

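The authors deposited normalized counts, a signal in which the reads of each library were scaled by its own size factor. The submitters' processing notes name HISAT2 2.0.5, featureCounts 1.5.0-p3 and the build hg18, which is human, whereas the table lists mouse Ensembl genes, and of the 27164 with an identifier in GENCODE M21 (GRCm38) 97.2% have the coordinates given there. Strand use in counting is not stated; the exons of *Nedd4l* and *Wwp1* share 277 and 46 bases with genes of the other strand whose mean normalized counts are 2.14 and 1.61, and those of *Wwp2*, *Smurf2* and *Ndfip2* overlap small RNAs or a pseudogene not analysed here. Columns of the authors' genotype means, fold changes and p-values were not used.

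Values were compared in R 4.3.3 with limma 3.58.1 (lmFit, eBayes with trend and robust) on log2(value + 1) for 16246 genes with a mean of at least 10, with Benjamini-Hochberg adjustment at 0.05, and the code was tested on simulated data. Intervals are 95% and not adjusted. All values were whole multiples of a library's smallest value, within 1e-05 of a step. Figures used matplotlib 3.10.9. The 9 members, the lists and the tests were chosen with earlier results of these data known. Named are all members, the 4 genes of smallest p in each partner list and the 5 genes nearest to *Nedd4l*, and outside this rule *Scnn1a*, *Il6st*, *Jun* and *Map3k2*, chosen after their values were seen. The result of 1 further marker list is not reported here.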

Additional observations from a re-analysis of the deposited data

How the results depend on the processing

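The 9 members were refitted under 15 alternatives: quantile and TMM scaling, pseudocounts of 0.5 and 5, no filter or a mean of at least 50, plain eBayes, array weights, the replicate number as a block, and each library left out. Of 135 values, 123 kept their direction and side of the threshold. *Nedd4l* passed it with array weights (−1.09, adjusted p = 0.0212 from limma) and without knockout library 2, and ranged from −1.28 to −0.79 when 1 library was left out. The array weights were 0.414, 0.562 and 4.39 for knockout libraries 1, 2 and 3, so that fit rests mostly on knockout library 3. Direction turned in 10 values of 4 members. *Wwp2* was at −0.0015 with quantile normalization and ranged from −0.068 to 0.13 with 1 library left out. *Nedd4* ranged from −0.089 to 0.014, *Smurf1* from −0.071 to 0.10, and *Ndfip2* from −0.21 to 0.0033 in the same fits. The cause was not tested.

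Genes at an adjusted p under 0.05 (limma) numbered 23 lower and 7 higher with no filter on low values. They numbered 369 and 262 with array weights, the fit that rests mostly on knockout library 3. With 1 library left out the genes lower in the knockout ranged from 0 to 52 and the higher from 0 to 70, being 22 and 2 without knockout library 1 and 52 and 70 without knockout library 2. With the replicate block the adjusted p of *Nedd4l* was 0.236, the log2 fold change was unchanged at −0.99, the counts were 0 and 0, and no member changed its call. Same-numbered libraries are linked in the labels by a number only. Their deviations from the genotype means correlated at −0.029, −0.090 and −0.056, and those of other pairs at −0.024 to 0.064. Centred within 3 libraries, these values cannot decide whether same-numbered libraries were related. Count models on recovered reads were planned but not run. With 3 libraries a genotype, each gene's own 95% interval sets what could be resolved for it.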
